A study of Mus musculus with 12 samples.

Results

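Tumor macrophage RNA from mice with melanoma that received an inhibitor of the CSF1 receptor together with an activating antibody against CD40 was compared with that from mice that received the antibody without the inhibitor. The libraries were chosen by their labelled treatment and by no measured value, and comprised the 3 libraries of the combination group and the 3 libraries of the CD40 agonist group, 6 of the 12 in the series. Genes of the interferon gamma response and of MHC class I presentation, Csf1, Cd40, Nfkb2 and genes of glycolysis stood higher in the combination libraries. Mef2c, Klf4, Ifngr1 and the markers of patrolling monocytes and of B cells stood lower. None of these differences passed edgeR's quasi-likelihood test, in the form used here, after Benjamini-Hochberg adjustment over 16027 genes. Of the single genes, Mef2c, Klf4 and Ifngr1 passed in 3 alternative tests given below, and Csf1, Cd40 and Nfkb2 passed in DESeq2.

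All groups came from mice carrying Tyr::CreER, in which the promoter of the tyrosinase gene drives an inducible Cre recombinase in melanocytes, so that the macrophages are cells of the host and not of the transformed lineage. Another label gives the genotype as wild type. Treatment started 30 days after tumors were induced locally, while their summed volume was still under 100 mm3. It went on for 30 days unless the tumor endpoint of 2 cm3 came first. The CD40 agonist group received the antibody FGK4.5 at 10 mg/kg by intraperitoneal injection every 3 days, for up to 10 doses. The combination group received the same antibody and chow with PLX6134, labelled as the CSF1R inhibitor, at 600 mg per kg of chow. Control mice, which enter below as a reference, received normal chow and a PBS vehicle, and CSF1Ri mice received the inhibitor chow without the antibody. Each library pooled at least 3 tumors, so a library is not a single animal's tumor, and the labels do not tie pools to animals. The spread between libraries is therefore a spread between pools, and p-values measure that spread. Ages are given as matched and without a value.

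CSF1R is a receptor tyrosine kinase on monocytes and macrophages that binds CSF1 and IL-34 and supports the survival and differentiation of these cells, and patrolling monocytes are known to need it. CD40 is a receptor of the TNF receptor family on macrophages, dendritic cells and B cells, and its engagement signals through TRAF adaptors to classical and alternative NF-kB and induces cytokines and co-stimulatory molecules. Interferon gamma acts through the receptor chains Ifngr1 and Ifngr2 and mainly on genes with GAS elements, while type I interferons act mainly on genes with ISRE elements, and both raise MHC class I presentation.

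The promoters are shown of 5 genes of the interferon, class I and NF-kB lists that stood higher. The sequences are RefSeq windows on GRCm38.p6, 250 bases before to 50 after the annotated start, written 5′ to 3′ on the strand of the gene. Capitals mark matches, on either strand, to the ISRE core (GAAA, any 2 bases, GAAA) or to the kappaB consensus, and overlapping matches are joined.
Gbp2, chr3:142620413-142620712, plus strand: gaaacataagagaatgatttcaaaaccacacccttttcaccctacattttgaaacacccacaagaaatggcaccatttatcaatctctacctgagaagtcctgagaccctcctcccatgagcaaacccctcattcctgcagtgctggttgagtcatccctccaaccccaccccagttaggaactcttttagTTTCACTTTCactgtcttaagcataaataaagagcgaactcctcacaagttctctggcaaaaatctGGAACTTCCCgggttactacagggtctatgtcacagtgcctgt
Cxcl10, chr5:92348840-92349139, minus strand: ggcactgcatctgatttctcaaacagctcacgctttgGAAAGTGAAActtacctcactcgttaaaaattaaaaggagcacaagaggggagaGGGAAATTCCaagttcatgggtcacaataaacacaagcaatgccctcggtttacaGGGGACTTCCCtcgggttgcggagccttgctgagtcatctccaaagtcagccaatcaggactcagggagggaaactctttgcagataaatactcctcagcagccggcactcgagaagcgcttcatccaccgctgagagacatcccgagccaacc
Ifih1, chr2:62646206-62646505, minus strand: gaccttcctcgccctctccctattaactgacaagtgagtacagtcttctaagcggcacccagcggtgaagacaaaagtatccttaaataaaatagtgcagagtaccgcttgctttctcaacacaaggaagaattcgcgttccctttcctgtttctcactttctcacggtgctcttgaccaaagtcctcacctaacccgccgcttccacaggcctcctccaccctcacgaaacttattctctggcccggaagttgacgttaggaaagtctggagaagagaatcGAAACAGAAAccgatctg
B2m, chr2:122147437-122147736, plus strand: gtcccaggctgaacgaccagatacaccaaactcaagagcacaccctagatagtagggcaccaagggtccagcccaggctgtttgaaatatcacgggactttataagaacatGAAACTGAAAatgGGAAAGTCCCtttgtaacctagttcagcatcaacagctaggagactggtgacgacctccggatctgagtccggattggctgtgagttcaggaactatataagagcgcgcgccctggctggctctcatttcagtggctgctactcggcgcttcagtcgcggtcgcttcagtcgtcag
Nfkb2, chr19:46305445-46305744, plus strand, 1 of its 3 windows: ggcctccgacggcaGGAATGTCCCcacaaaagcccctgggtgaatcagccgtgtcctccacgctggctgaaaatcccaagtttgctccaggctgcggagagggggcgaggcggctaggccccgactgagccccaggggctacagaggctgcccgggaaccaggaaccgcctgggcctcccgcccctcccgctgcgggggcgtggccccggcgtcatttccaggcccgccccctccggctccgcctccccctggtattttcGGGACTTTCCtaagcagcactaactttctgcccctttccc
The windows of Gbp2 and B2m hold 1 ISRE match and 1 kappaB match each, that of Ifih1 holds 1 ISRE match, that of Cxcl10 holds 1 ISRE match and 3 kappaB matches counted by position on either strand, and that of Nfkb2 holds 2 kappaB matches. Among the tested genes with a window in the table, 465 of 11455 (4.06%) had the ISRE core in at least 1 window. The share was 12 of 20 (60%) for the interferon gamma response list, 11 of 20 (55.0%) for the type I interferon list and 5 of 19 (26.3%) for the MHC class I list. The kappaB consensus was found for 11.8% of all such genes, 11 of 15 (73.3%) of the classical NF-kB list and 9 of 19 (47.4%) of the MHC class I list. The GAS element TTCNNNGAA was found for 8.60% of all such genes and 9 of 20 (45.0%) of the interferon gamma list. A match is a description of letters and not evidence of binding in these cells. The lists group genes by pathway, so these shares describe the lists and not these libraries.

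The CD40 agonist libraries held 26316328 to 33948213 estimated counts and the combination libraries 34168389 to 39818657. Values below are counts per 1000000 (CPM) after TMM scaling unless stated. The labelled cell type was checked against the macrophage genes Lyz2, Cd68, Csf1r and Adgre1, which were present in all 6 libraries: the mean TPM of Lyz2, a lysozyme of myeloid cells, was 15580 in the CD40 agonist group and 18610 in the combination group. Of the 25 tested genes of the macrophage identity list, 12 had a higher and 13 a lower estimate, against 49.9% and 50.1% of all genes. The list's median log2 fold change was -0.17, and 6 had a higher estimate without combination replicate 2. Its summed TPM was 17160 to 20850 in the CD40 agonist libraries and 14440, 33800 and 19040 in combination replicates 1, 2 and 3. The resident macrophage marker Cd5l was at 0 counts in all 3 combination libraries, and markers of other cells were present. No sorting gate is given in the sources used here. Combination replicate 2 stood apart from the other two of its group: its summed TPM for the classical monocyte list was 18920 against 4985 and 7043, and for the dendritic cell list 255 against 2221 and 2397. Fold changes of single genes that leaving out this library moved by over 1.5 times are given with and without it, as are the medians of the interferon, class I, NF-kB, glycolysis and monocyte lists. CD40 agonist replicate 1 also stood apart, at -116.38 on the third principal component of log2 CPM against -12.77 and 3.71, and the interferon and MHC class I lists are given without both libraries too.

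Of 16027 genes tested by edgeR over all 12 libraries, 0 (0.0%) differed between the combination and the CD40 agonist at an adjusted p below 0.05, and the smallest adjusted p was 0.0793. At an unadjusted p below 0.05 the count was 1450 (9.05%), 750 higher (4.68%) and 700 lower (4.37%). DESeq2 called 275 of 15862 genes (1.73%), 127 higher (0.801%) and 148 lower (0.933%), limma voom called 7 (0.0437%), all lower, and edgeR with bias-adjusted dispersions called 14 (0.0874%), 3 higher (0.0187%) and 11 lower (0.0686%). Mef2c, Klf4 and Ifngr1 were called by these 3 alternatives alike, all lower in the combination. In 2168 genes (13.5%) the 3 combination libraries did not overlap the 3 CD40 agonist libraries, 1057 higher (6.6%) and 1111 lower (6.93%). These shares are the background against which the gene lists are read. The median log2 fold change of all genes was -0.001. In bulk RNA, fewer cells of a type and less RNA per cell cannot be told apart.

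The targets of the agents came first. Csf1r, on chr18:61100598-61132149, read 866, 1043 and 1032 CPM in CD40 agonist replicates 1 to 3 and 615, 1208 and 692 CPM in the combination. The groups overlapped, with combination replicate 2 the highest of the 6, and the log2 fold change was -0.22 ± 0.21 (SE; adjusted p 0.857). Csf1, the ligand of that receptor, on chr3:107741048-107760469, read 33.5, 27.6 and 20.2 CPM with the antibody and 65.8, 62.0 and 97.0 CPM with both agents. Every combination library lay above every CD40 agonist library, 2.77-fold higher by the fitted means (log2 fold change 1.47 ± 0.31, edgeR adjusted p 0.207, DESeq2 adjusted p 0.00116). Without the antibody the inhibitor's difference in Csf1 was of like size, 1.68 ± 0.31 on the log2 scale (edgeR adjusted p 0.0917). Il34, the second ligand, was at 0 counts in the 3 CD40 agonist libraries and reached at most 1.30 CPM in a combination library, too low to be tested.

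Cd40, on chr2:165055627-165072948, encodes the receptor that the antibody engages. It read 99.1, 129 and 121 CPM in the CD40 agonist libraries and 303, 189 and 239 CPM in the combination libraries, 2.10-fold higher without overlap (log2 fold change 1.07 ± 0.27, edgeR adjusted p 0.275, DESeq2 adjusted p 0.0128). In mice without the antibody the difference had the opposite sign, -0.76 ± 0.26 (edgeR adjusted p 0.388), with 140, 98.1 and 151 CPM in control libraries and 62.0, 60.5 and 109 CPM in CSF1Ri libraries. The test of the difference between these 2 contrasts gave 1.82 ± 0.37 on the log2 scale, with an edgeR adjusted p of 0.247. Nfkb2, on chr19:46304320-46312385, encodes the p100 precursor of the alternative NF-kB pathway that CD40 engages. It read 47.5, 41.7 and 49.1 CPM with the antibody and 75.2, 78.0 and 83.2 CPM with both agents, a tight pair of groups 1.71-fold apart (log2 fold change 0.77 ± 0.13, edgeR adjusted p 0.173, DESeq2 adjusted p 2.92e-07). Without the antibody its difference was -0.31 ± 0.13, and the difference between the contrasts was 1.08 ± 0.18 (edgeR adjusted p 0.174). Nfkb2 shares exon sequence with Psd on the other strand, and the libraries carry no strand information. Of the 13 tested genes of the CD40 and alternative NF-kB list, Nfkb2 and Cd40 were the 2 with unadjusted p below 0.05, both higher, against 4.68% of all genes. The list's median was 0.36, and it was 0.22 without combination replicate 2 and 0.19 without combination replicate 3. Relb, the partner of the processed Nfkb2 product, read 37.1, 43.4 and 45.7 CPM against 94.5, 29.8 and 69.8 CPM, so its groups overlapped. The growth factor list of CSF1R and its relatives had a median of 0.28 over 9 genes, of -0.16 without combination replicate 2 and of 0.58 without combination replicate 1.

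**Figure D1:**
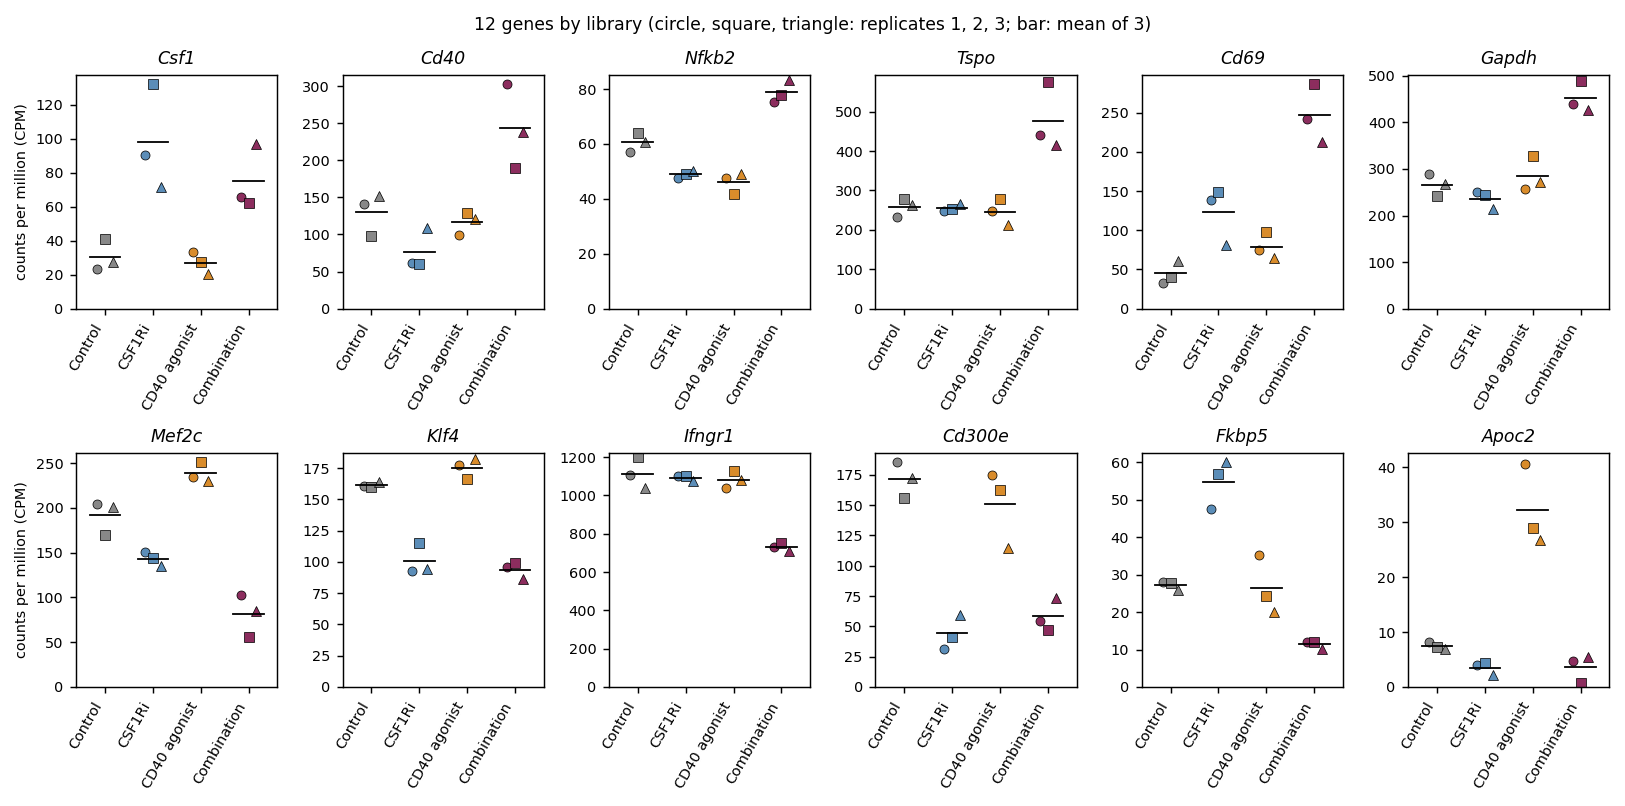
CPM (vertical axis, from 0) of 12 genes in each of the 12 libraries, by group along the horizontal axis; symbols mark replicates and bars the mean of 3. In all 12 panels the 3 combination libraries lie apart from the 3 CD40 agonist libraries, above them in the upper row and below them in the lower row, while Csf1 and Cd69 are also higher and Klf4 and Cd300e also lower in CSF1Ri than in Control. Apart from Csf1 and Cd40, the genes were picked among those whose libraries do not overlap.

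The genes with the smallest unadjusted p were lower ones. Mef2c, a transcription factor of the myeloid and B cell lineages on chr13:83504034-83667080, read 234, 252 and 229.6 CPM (239 ± 11.7, SD, n = 3) with the antibody and 102, 56.2 and 85.4 CPM (81.4 ± 23.4, SD, n = 3) with both agents. It was 2.93-fold lower in the combination (log2 fold change -1.55 ± 0.19, edgeR adjusted p 0.0793), and edgeR called it without combination replicate 2 (adjusted p 0.00685). Klf4, a zinc finger factor of monocyte differentiation on chr4:55527143-55532466, read 178, 166 and 182 CPM against 95.7, 99.2 and 86.4 CPM, 1.87-fold lower (log2 fold change -0.90 ± 0.12, edgeR adjusted p 0.0793). Here the inhibitor without the antibody gave a difference of the same sign, -0.68 ± 0.12 (edgeR adjusted p 0.0813). Ifngr1, the ligand-binding chain of the interferon gamma receptor on chr10:19591949-19610229, read 1038, 1126 and 1081 CPM against 733, 749 and 712 CPM. It was 1.48-fold lower (log2 fold change -0.57 ± 0.08, edgeR adjusted p 0.148), while CSF1Ri and Control differed by -0.03 ± 0.08. The partner chain Ifngr2 did not stand apart, at -0.00 ± 0.14.

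Fkbp5, a co-chaperone of the glucocorticoid receptor that glucocorticoids induce, gave opposite signs in the 2 settings. It read 35.3, 24.2 and 19.9 CPM with the antibody and 12.1, 11.96 and 10.1 CPM with both agents (log2 fold change -1.22 ± 0.23, edgeR adjusted p 0.183). Without the antibody the inhibitor libraries stood higher, at 47.4, 56.8 and 60.05 CPM against 27.9, 27.8 and 25.9 CPM (1.01 ± 0.23, edgeR adjusted p 0.138). The difference of the contrasts, -2.23 ± 0.32, had the smallest adjusted p of any gene in that test, 0.141, and did not pass. The other lower genes of the 12 with the smallest p, picked among genes without overlap, were Tcf7l2, Cd300e, Ms4a1, Zfyve9, Apoc2, Pla2g5, Zfp212 and Pou2f2. Apoc2, an apolipoprotein that activates lipoprotein lipase, read 40.6, 28.9 and 26.8 CPM against 4.66, 0.779 and 5.39 CPM, 8.88-fold lower (log2 fold change -3.15 ± 0.59). Tcf7l2, a transcription factor of the Wnt pathway, read 49.9, 48.9 and 44.4 CPM against 22.5, 28.4 and 25.4 CPM. Pla2g5, a secreted phospholipase, read 5.91, 2.20 and 3.87 CPM against 0 counts in the combination libraries, at least 146-fold lower at a floor of 3 counts over the group. That gene was also at 0 counts in all CSF1Ri libraries and at most 0.0304 CPM in control libraries. Pla2g5 thus passed the count filter only through the CD40 agonist libraries. Its lower value in the combination was largely fixed by that filter and by the choice of genes without overlap.

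Among the 12 higher genes with the smallest p, Tspo, an outer mitochondrial membrane protein, read 247, 279 and 213 CPM with the antibody and 440.5, 576 and 414 CPM with both agents, 1.94-fold higher (log2 fold change 0.95 ± 0.15, edgeR adjusted p 0.148). Ncf1, the p47phox subunit of the phagocyte NADPH oxidase, read 137, 146 and 119 CPM against 264, 285 and 219.9 CPM (0.93 ± 0.16). Cd69, an early activation marker of leukocytes, read 74.8, 97.4 and 64.1 CPM against 241, 286 and 212 CPM (1.65 ± 0.29), and the inhibitor without the antibody gave 1.45 on the same scale. These 3, like the others of the 12, were picked among genes whose combination libraries do not overlap the CD40 agonist libraries. Psma5, a subunit of the proteasome core, was 1.58-fold higher (0.66 ± 0.12), and Ube2l6, the conjugating enzyme of ISG15, 2.08-fold higher (1.06 ± 0.21). The remaining names were Nfkb2, Spocd1, Gldn, Gapdh, Pla2g16, Ggh and Ifih1. Spocd1 and Gldn were at most 1.09 CPM in the CD40 agonist libraries and 1.66 to 8.60 CPM in the combination libraries, so their folds rest on few counts. None of the 24 genes passed the edgeR test, with adjusted p from 0.0793 to 0.207. Leaving out any 1 of the 12 libraries kept the sign of all 24, which picking genes without overlap largely fixed in advance.

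Interferon gamma response genes stood out by count. Of the 27 genes of the list, all tested, 24 had a higher estimate, against 49.9% of all genes, and 20 an unadjusted p below 0.05 with a higher value, against 4.68%. In 13 of the 27 the combination libraries lay above the CD40 agonist libraries without overlap, against 6.6% of all genes, and DESeq2 called 13 higher, against 0.801%. The list's median log2 fold change was 1.69, beside -0.001 over all genes and -0.17 for the same list without the antibody. Combination replicate 2 carried much of the size: without it the median was 0.84 and 12 genes had an unadjusted p below 0.05 with a higher value, against 4.0% of all genes. Without CD40 agonist replicate 1 as well, the median was 0.74 with 9 such genes, against 3.18% of all genes.

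Irf1, a transcription factor that interferon gamma induces, read 209, 186 and 217 CPM with the antibody and 350, 565 and 324 CPM with both agents (1.02 ± 0.23, DESeq2 adjusted p 0.00523). Gbp2, a guanylate-binding protein of cell-autonomous defence, read 160, 208 and 229 CPM against 394, 1689 and 528 CPM (2.13 ± 0.49, DESeq2 adjusted p 0.000708, and 1.21 without combination replicate 2). In both genes all 3 combination libraries were above all 3 CD40 agonist libraries, and replicate 2 was the highest. Cxcl10, a chemokine for CXCR3-bearing lymphocytes, read 25.9, 11.4 and 18.4 CPM against 37.4, 172 and 44.8 CPM (2.19 ± 0.58, and 1.15 without combination replicate 2). Iigp1, an immunity-related GTPase, had the largest estimate of the list (4.36 ± 1.17, and 2.28 without combination replicate 2), at 10.47, 18.3 and 67.1 CPM against 112, 1667 and 198 CPM. The RNA of the ligand, Ifng, read 17.6, 19.5 and 11.3 CPM against 14.6, 15.96 and 12.4 CPM (-0.17 ± 0.40, edgeR adjusted p 0.959). The ligand as a protein was not measured. Ifngr1 was the 1 gene of the list lower with an unadjusted p below 0.05.

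Type I interferon genes showed smaller differences. Of 26 tested genes of the 27 in that list, 24 had a higher estimate, against 49.9% of all genes, with a median of 0.83. An unadjusted p below 0.05 with a higher value was found for 11, against 4.68% of all genes, and a DESeq2 call for 2, against 0.801%. In 9 the libraries separated without overlap in that direction, against 6.6%. Without combination replicate 2 the median was 0.46 with 2 genes at that p, against 4.0% of all genes. Without CD40 agonist replicate 1 as well it was 0.22 with 1 gene, near the share of all genes, 3.18%. Ifih1, the RNA sensor MDA5, read 29.2, 24.1 and 37.3 CPM against 70.2, 149.9 and 57.4 CPM (1.62 ± 0.33, edgeR adjusted p 0.207, DESeq2 adjusted p 0.000633). Rtp4, an interferon-induced receptor transport protein, read 25.3, 26.5 and 30.5 CPM against 49.4, 155 and 43.7 CPM (1.59 on the log2 scale, and 0.76 without combination replicate 2). For Ifit3, an interferon-induced antiviral protein, the combination was 0.78 ± 0.29 higher on the log2 scale and CSF1Ri was 1.73 lower than Control.

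**Figure D2:**
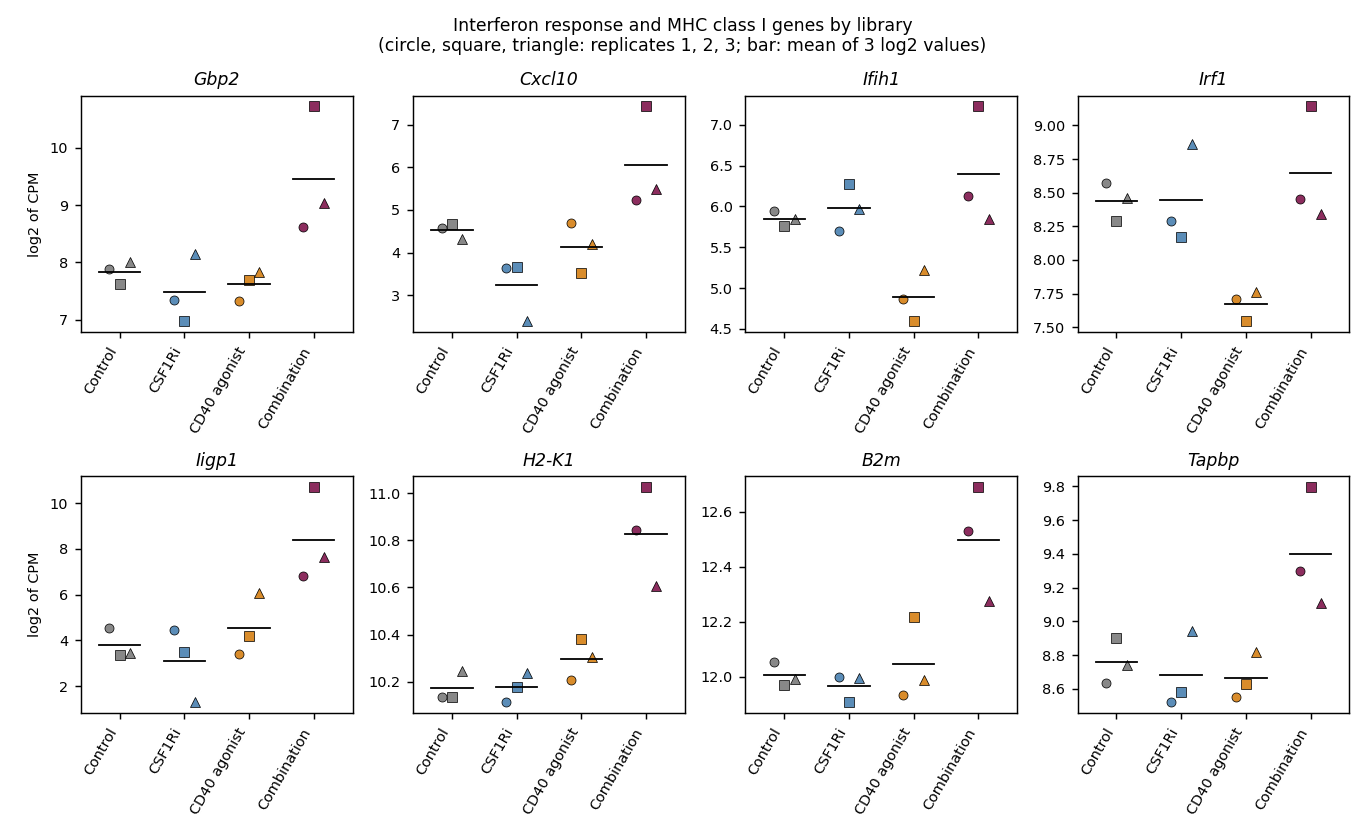
Log2 of CPM (vertical axis) of 5 interferon response genes and 3 MHC class I genes in each library, by group along the horizontal axis; symbols mark replicates and bars the mean of the 3 log2 values. The 3 combination libraries lie above the 3 CD40 agonist libraries in every panel, and replicate 2 (square) is the highest of the combination in all 8.

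MHC class I presentation genes stood higher throughout. All 22 genes were tested, and all 22 had a higher estimate (0.28 to 1.02 on the log2 scale). Of these, 19 had an unadjusted p below 0.05, against 4.68% of all genes with a higher value. In 18 the libraries did not overlap, against 6.6%, and DESeq2 called 8, against 0.801%. The median was 0.67, and 0.54 without combination replicate 2, with 15 genes at an unadjusted p below 0.05, against 4.0% of all genes. Without CD40 agonist replicate 1 as well, it was 0.46 with 8 such genes, against 3.18% of all genes. H2-K1, a classical class I heavy chain, read 1182, 1334 and 1263 CPM against 1837, 2086 and 1560.0 CPM (0.54 ± 0.11, edgeR adjusted p 0.207, DESeq2 adjusted p 0.00369). B2m, the invariant light chain, read 3907, 4761 and 4064 CPM against 5909, 6609 and 4958 CPM (0.46 ± 0.11). H2-T22, a non-classical class I heavy chain, read 133, 135 and 141 CPM against 220.3, 342 and 199.7 CPM (0.90 ± 0.19). Tapbp, the tapasin that bridges class I and the peptide transporter, read 376, 395 and 451 CPM against 630.3, 889 and 551 CPM (0.76 ± 0.18), and the proteasome activator subunit Psme2 447, 560.4 and 545 CPM against 983, 1116 and 757 CPM. Reads of near-identical class I copies may have been split between them, so single H2 genes are uncertain. Without the antibody, 3 of the 22 had a higher estimate and the median was -0.20, and in the test of the difference between the contrasts 17 of 22 had an unadjusted p below 0.05 with a higher value, against 4.64% of all genes, though 0 of 16027 (0.0%) passed after adjustment.

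MHC class II genes did not show such a difference with the antibody. H2-Aa, a class II alpha chain, read 3902, 5526 and 6738 CPM against 7114, 5423 and 6119 CPM (0.21 ± 0.20). The 12 genes of the list had a median of 0.10 with 1 higher at an unadjusted p below 0.05, against 4.68% of all genes. Leaving out 1 library gave medians from -0.04, without CD40 agonist replicate 1, to 0.32, without CD40 agonist replicate 3. Cd74, the class II invariant chain, differed by 0.08 ± 0.22. Without the antibody 11 of the 12 had a lower estimate in CSF1Ri than in Control and the median was -0.58, with H2-Aa at -0.99 ± 0.20 (edgeR adjusted p 0.109).

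Cytokines and NF-kB genes followed in part. Of 22 inflammatory cytokines, 20 had a higher estimate. An unadjusted p below 0.05 with a higher value was found for 7, against 4.68% of all genes, and DESeq2 called 3, against 0.801%. Tgfb1, a cytokine that restrains macrophage activation, was lower at an unadjusted p below 0.05 (-1.04 ± 0.35). The median of the cytokine list was 0.59. It was 0.49 without combination replicate 2, where 17 had a higher estimate, and 1.07 without combination replicate 3. Il27, the p28 subunit of interleukin 27, read 9.12, 11.2 and 14.4 CPM against 27.4, 71.6 and 30.2 CPM (1.90 ± 0.39, edgeR adjusted p 0.207, DESeq2 adjusted p 0.000633). Il6, a cytokine of acute inflammation, read 20.7, 28.9 and 14.8 CPM against 55.9, 57.3 and 42.5 CPM (1.27 ± 0.31, DESeq2 adjusted p 0.00986). Oncostatin M, from Osm, read 205, 137 and 112 CPM against 412, 354 and 362 CPM (1.31 ± 0.38). All 3 stood apart without overlap, and Il6 and Osm were also higher in CSF1Ri than in Control, by 1.82 ± 0.32 and 2.24 ± 0.40. CSF1Ri replicate 3 stood apart from replicates 1 and 2, with Osm at 127 CPM against 443 and 417 CPM, a cytokine sum of 888 TPM against 3686 and 3124 TPM, and a neutrophil marker sum of 1618 TPM against 8841 and 6123 TPM. Control libraries had neutrophil sums of 1337 to 3565 TPM, and the part of these cells in the cytokine differences was not tested. Tnf overlapped between the groups, at 115, 76.2 and 58.8 CPM against 142, 266 and 96.3 CPM. Il12b, the p40 subunit of interleukin 12, was 14.3, 38.6 and 48.2 CPM against 224, 20.4 and 177 CPM, with combination replicate 2 within the CD40 agonist range. In the classical NF-kB list, 14 of 18 had a higher estimate, 6 an unadjusted p below 0.05 with a higher value and the median was 0.57. The share of all genes at that p was 4.68%. Without combination replicate 2 the list's median was 0.25 with 1 such gene, near the share of all genes, 4.0%. Tnfaip3, the feedback inhibitor A20, read 251, 228 and 254 CPM against 569.7, 734 and 439 CPM (1.25 ± 0.32, DESeq2 adjusted p 0.0132).

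Of 24 glycolysis and hypoxia genes, 20 had a higher estimate, against 49.9% of all genes, and the median was 0.42. An unadjusted p below 0.05 with a higher value was found for 10, against 4.68% of all genes, and DESeq2 called 4, against 0.801%. In 11 the libraries separated without overlap in that direction, against 6.6%. Without combination replicate 2 the median was 0.36 with 8 genes at an unadjusted p below 0.05, against 4.0% of all genes. Gapdh read 257, 327 and 273 CPM against 440.3, 489 and 426 CPM (0.66 ± 0.13, edgeR adjusted p 0.183), and Tpi1, the triose phosphate isomerase, 145, 147 and 150.4 CPM against 210.4, 269 and 224 CPM (0.67 ± 0.15). In the lysosome and lipid list 13 genes had a higher and 11 a lower estimate, and the median was 0.06, or -0.03 without CD40 agonist replicate 1. The 2 members with the smallest p had opposite signs: Cd36, a fatty acid scavenger receptor, read 240.5, 443 and 239.8 CPM against 144, 92.7 and 59.97 CPM (-1.64 ± 0.39, DESeq2 adjusted p 0.0034), while Lgals3, a galactose-binding lectin, read 917, 953 and 795 CPM against 1352, 1466 and 1085 CPM (0.55 ± 0.16). Apoe, the apolipoprotein of lipid efflux, named after its values were seen, read 256, 399 and 424 CPM against 122, 11.4 and 76.7 CPM (-2.36 ± 0.71, and -1.86 without combination replicate 2). The inhibitor gave lower Cd36 and Apoe without the antibody as well, by log2 fold changes of -1.91 and -1.79.

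All 11 patrolling monocyte markers had a lower estimate, against 50.1% of all genes. Of these, 7 had an unadjusted p below 0.05, against 4.37% of all genes, and 8 had libraries without overlap, against 6.93%. DESeq2 called 4, against 0.933%, and the median was -0.78. Without combination replicate 2 the median was -1.03 with 9 genes at an unadjusted p below 0.05, against 4.57% of all genes. Cd300e, an activating receptor of monocytes, read 175, 162 and 115 CPM against 54.2, 47.1 and 73.2 CPM (-1.37 ± 0.25, edgeR adjusted p 0.183, DESeq2 adjusted p 0.000153). Pou2f2, the transcription factor Oct-2, read 116, 80.0 and 89.8 CPM against 50.4, 35.6 and 29.3 CPM (-1.31 ± 0.25), and Ace, the angiotensin-converting enzyme, 225, 176 and 185 CPM against 84.1, 33.0 and 69.8 CPM (-1.65 ± 0.32). Bcl2, a survival factor from another list, read 82.4, 68.8 and 52.8 CPM against 25.0, 21.96 and 32.2 CPM (-1.37 ± 0.29). The summed TPM of the patrolling list was 1640.0 to 1932 with the antibody and 899 to 1233 with both agents. Without the antibody the same list had a median of -0.84, all 11 lower, and 0 of its genes had an unadjusted p below 0.05 for the difference between the contrasts. Classical monocyte markers all had higher estimates, median 0.93, yet 0.18 without combination replicate 2. Ly6c2, the antigen that marks those cells, read 248, 236 and 149 CPM against 361, 2528 and 560.1 CPM (2.45 ± 0.60, and 1.13 without combination replicate 2).

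Other cell types were present, and the marker sums of several of them differed between the groups. All 11 tested B cell genes had a lower estimate, with a median of -2.62. The median was -2.04 without combination replicate 2, with 1 gene higher, and -4.04 without combination replicate 3. Of the 11 genes, 6 had an unadjusted p below 0.05, against 4.37% of all genes, and 9 had no overlap between the libraries, against 6.93%. Ms4a1, the B cell antigen CD20, read 13.7, 9.98 and 4.62 CPM against 0.109, 0.373 and 0.357 CPM (-5.06 ± 0.79, edgeR adjusted p 0.148), and Ighm, the immunoglobulin mu chain, 226, 294 and 292 CPM against 185, 94.6 and 123 CPM. The B cell list summed to 1336 to 2497 TPM with the antibody and 89.3 to 511 TPM with both agents, and its defining genes Pax5 and Blk were at 0 counts in all 3 combination libraries and in 0 of the CD40 agonist libraries. T cell genes summed to 187 to 291 TPM against 95.3 to 168 TPM, but their mean log2 CPM overlapped, at 1.87 to 3.63 against 0.60 to 2.03. Of the 18 genes 16 had a lower estimate and 2 were lower at an unadjusted p below 0.05, against 4.37% of all genes. Libraries without overlap were found for 2, against 6.93%. Among the T cell genes Foxp3, the factor of regulatory T cells, read 9.06, 1.42 and 8.46 CPM against at most 0.109 CPM, and its exons overlap genes on the other strand. Neutrophil markers summed to 852 to 1183 TPM against 1804 to 5081 TPM, 16 of 17 with a higher estimate (13 without combination replicate 2), while Ly6g was at 0 counts in 3 CD40 agonist libraries and in 1 combination library. S100a8, an alarmin subunit abundant in neutrophils, read 97.0, 70.5 and 85.3 CPM against 204, 523 and 526 CPM. Mast cell and basophil genes summed to 341 to 612 TPM against 654 to 1100.0 TPM, with the basophil protease Mcpt8 at 60.6, 43.0 and 17.1 CPM against 148, 78.8 and 137 CPM. The mean log2 CPM of that list overlapped, at 3.41 to 4.53 against 4.33 to 5.12. NK and cytotoxic genes, which include Ifng, summed to 4075 to 6883 TPM against 4654 to 6260.0 TPM. Of the 17 genes of that list 13 had a lower estimate, 3 of them (Klrd1, S1pr5 and Fasl) and 1 higher gene (Klrk1) had an unadjusted p below 0.05, and the list's median was -0.43 (-0.19 without CD40 agonist replicate 2). At that p 4.37% of all genes were lower and 4.68% higher. The mean log2 CPM of the NK list did not overlap between the groups, at 5.02 to 5.81 with the antibody and 4.93 to 4.97 with both agents. The part of these cells in the interferon, class I, cytokine and monocyte differences was not tested.

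**Figure D3:**
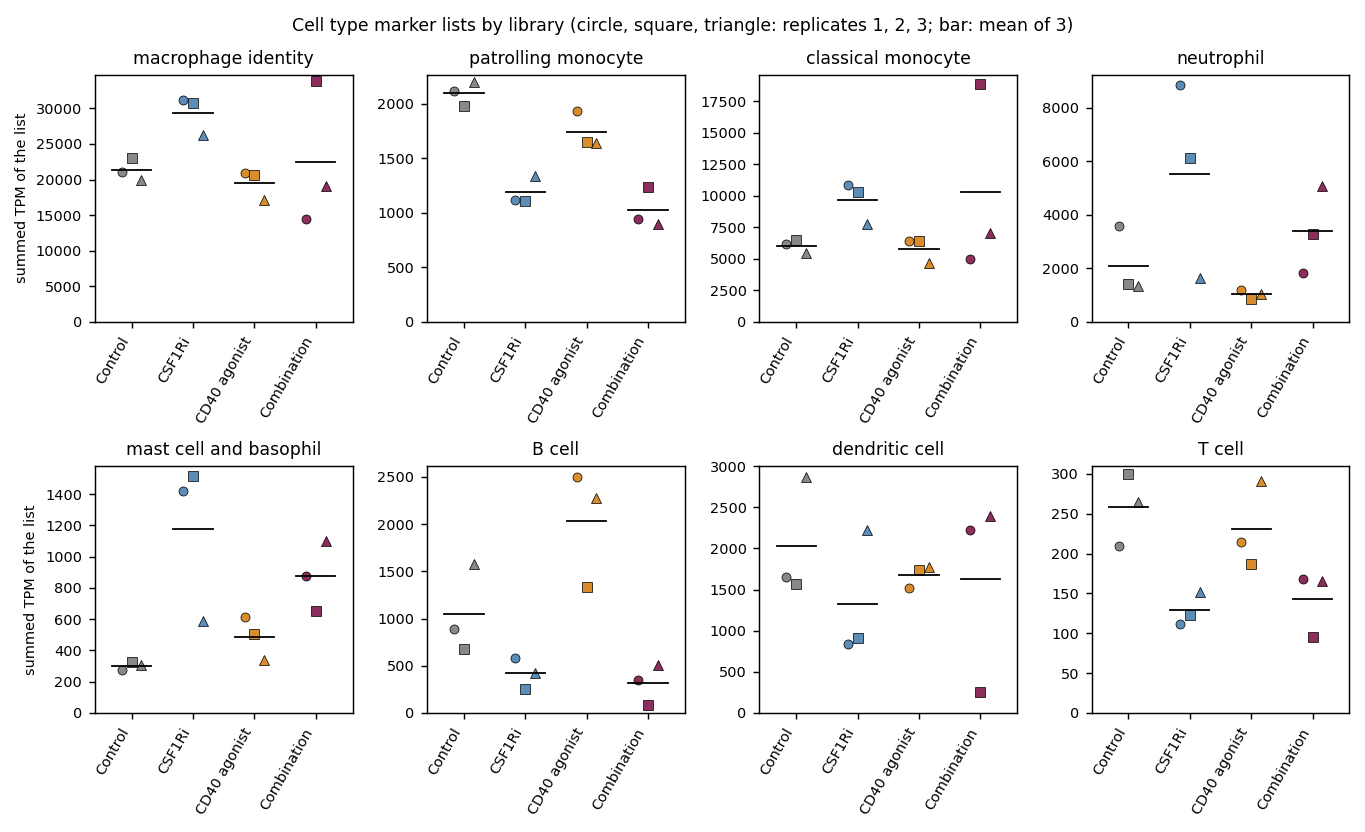
Summed TPM (vertical axis, from 0) of 8 marker lists in each library, by group along the horizontal axis; symbols mark replicates and bars the mean of 3. The patrolling monocyte, B cell and T cell sums of the combination lie below those of the CD40 agonist, the neutrophil and mast cell sums lie above them, and combination replicate 2 (square) sets the high classical monocyte and macrophage sums and the low dendritic cell sum.

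The inhibitor's difference with the antibody was set beside its difference without it, contrasts that share no library. Across 16027 genes the 2 sets of log2 fold changes had a Pearson r of 0.101 and a Spearman rho of 0.085, and 52.6% of genes had the same sign. Genes are not independent replicates, and both contrasts come from 1 fit. Without the antibody Gpld1 and the predicted gene Gm9973, both higher and both named here after their values were seen, were the 2 genes that passed edgeR (0.0125%), and 1517 had an unadjusted p below 0.05 (9.47%), 751 higher (4.69%) and 766 lower (4.78%). For the test of the difference between the contrasts 1305 genes had an unadjusted p below 0.05 (8.14%), 743 higher (4.64%) and 562 lower (3.51%), DESeq2 called 178, and edgeR called 0. Csf1, Il6, Cd69, Cd36, Cd300e and Bcl2 had differences of the same sign in both settings. Gbp2, Cd40, Nfkb2 and Fkbp5 had estimates of opposite sign.

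Ear2, an eosinophil-associated ribonuclease, read 53.6, 33.7 and 41.3 CPM with the antibody and 22.3, 17.0 and 16.2 CPM with both agents (-1.21 ± 0.24, DESeq2 adjusted p 0.000402), and was 0.34 ± 0.23 higher in CSF1Ri than in Control. The granule protein genes Epx, Prg2 and Prg3 were at 0 counts in all 6 libraries with the antibody. Reads of the Ear family can be split between copies, so Ear2 is uncertain as a single gene. Thbs1, a matrix glycoprotein of tissue remodelling, read 729.8, 675 and 385 CPM against 188, 259 and 194 CPM (-1.48 ± 0.57) and was 1.05 ± 0.56 higher in CSF1Ri than in Control.

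**Figure D4:**
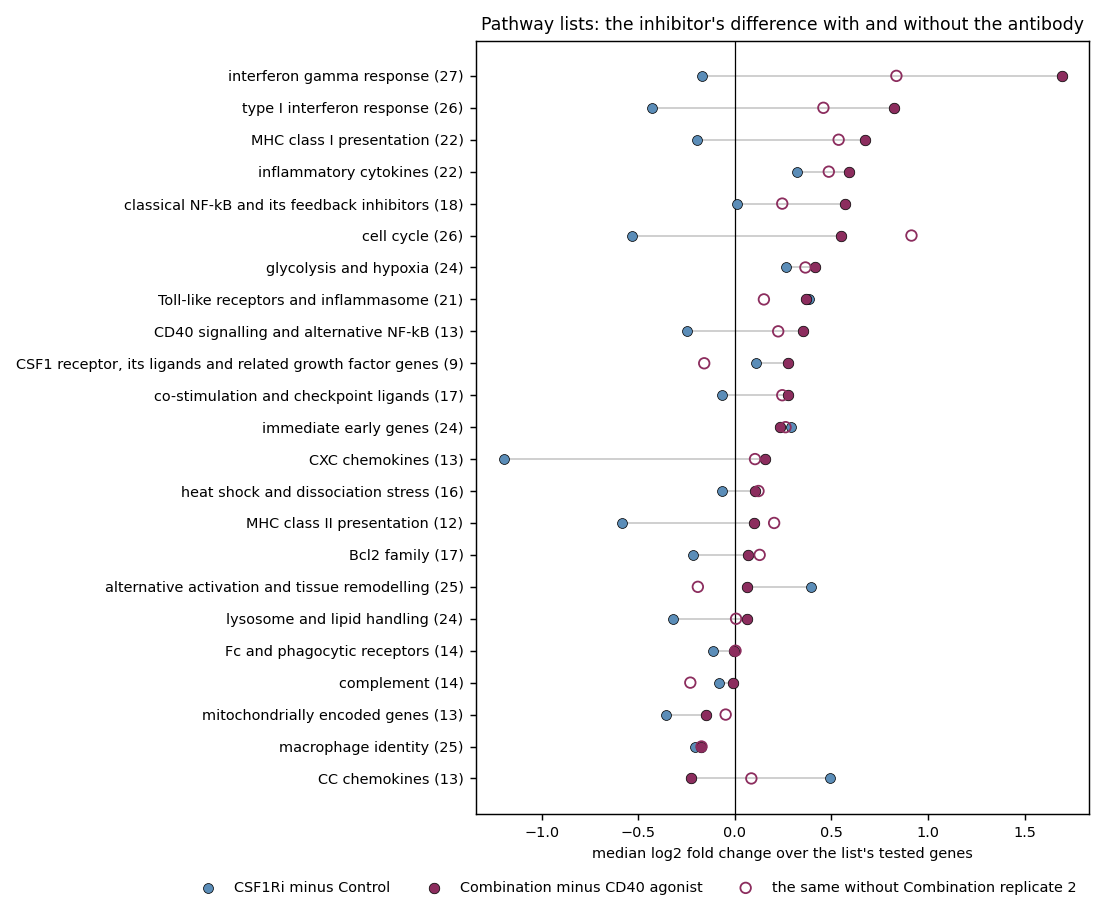
Median log2 fold change (horizontal axis) of 23 pathway lists, with the number of tested genes in brackets, for Combination minus CD40 agonist (filled purple), the same without combination replicate 2 (open) and CSF1Ri minus Control (blue). The interferon gamma, type I interferon and MHC class I lists have medians of 1.69, 0.83 and 0.67 with the antibody and -0.17, -0.43 and -0.20 without it.

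**Figure D5:**
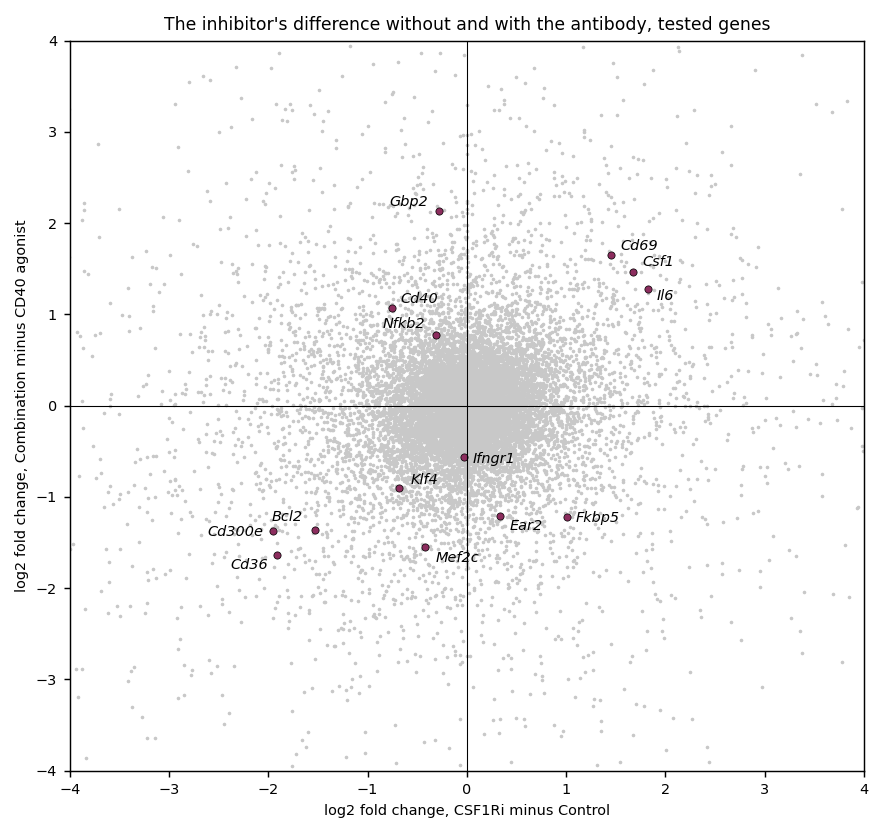
Log2 fold change of CSF1Ri minus Control (horizontal axis) and of Combination minus CD40 agonist (vertical axis) for 15194 genes, 1 grey point each, with 833 genes outside the axis range and 14 named genes in purple. Csf1, Il6 and Cd69 lie at upper right and Cd36, Cd300e and Bcl2 at lower left, while Gbp2, Cd40 and Nfkb2 lie above 0 on the vertical axis and below 0 on the horizontal axis.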

How the data were processed

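RNA from 12 pools of tumor macrophages was sequenced as unstranded paired 75-bp reads from 50 ng of RNA, per the labels' protocols. STAR, HTSeq and DESeq2 with the build mm10 are named in the submitters' processing notes. The files hold instead, per the file headers, an estimated count and a TPM value for each transcript, and the sources used here name no program for them. The deposited estimated counts carry no normalization. The deposited TPM values, which add up to 1000000 per library, served for marker sums and levels.

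Of 111462 transcripts, 110203 (98.9%) matched GENCODE M21 (GRCm38), and their counts were summed per gene and rounded. Genes were filtered with edgeR's filterByExpr, scaled by TMM and tested with edgeR 4.0.16 (quasi-likelihood in its legacy form, without bias-adjusted dispersions, robust, R 4.3.3). The fit was 1 model with a term for each of the 4 groups, which leaves 8 residual degrees of freedom. SE is the log2 fold change divided by the square root of F. The contrasts were Combination minus CD40 agonist, CSF1Ri minus Control and the difference of both. DESeq2 1.42.0 and limma 3.58.1 (voom) were alternatives, as were edgeR with bias-adjusted dispersions, other scaling and filters, leaving out libraries, and the replicate number as a block. The procedure was tested on simulated data that varied less between libraries than these do, so that test does not measure its power or error rate here. The common biological coefficient of variation of these libraries was 60.96%. Since amplified reads lack molecular identifiers, a floor of 3 counts covers counting error only.

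Genes named are Csf1r, Csf1, Il34 and Cd40, 12 higher and 12 lower genes, and 2 genes with the smallest p from each of 38 lists, 92 genes in all. The 12 of each direction have the smallest p among genes at a mean of at least 1 CPM whose combination and CD40 agonist libraries do not overlap. Predicted genes and receptor segments were left out of them. Their lack of overlap is thus a condition of the choice and not a result. Other list members were named after their values were seen. The members and lists were chosen with earlier results of these data known. Of the 92 genes, 25 share exon sequence with a gene on the other strand, among them Csf1r, Nfkb2, Tspo, Ncf1, Psma5, Gapdh, Tpi1, Cxcl10, Irf1, Il27, H2-T22, Cx3cr1, Bcl2, Thbs1 and Zfyve9, and their reads cannot be told apart. Some share it with a gene on the same strand, among them Apoc2, Cfb and Rtp4, so their counts may be split between genes. The mice's other alleles and some genes of the lists are not reported here.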

Additional observations from a re-analysis of the deposited data

How the results depend on the processing

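The count of genes that differed between the combination and the CD40 agonist at an adjusted p below 0.05 was 0 with edgeR and stayed at 0 with DESeq2's size factors, without a filter, with at least 1 CPM in 3 libraries, without robust estimation and with the 6 libraries fitted by themselves. It was 275 with DESeq2, 7 with limma voom and 14 with bias-adjusted edgeR, and the cause was not tested. Leaving out 1 library gave 0 to 6 genes. The 6 came without combination replicate 2 (Mef2c, Tlr7, Treml4, Adgre4 and Ube2g2 lower, Sostdc1 higher), and 1 gene passed without combination replicate 1 (Mef2c) and 1 without control replicate 2 (Tmem45b, lower). For CSF1Ri against Control the count of 2 became 408 with DESeq2, 0 with limma voom, 4 without robust estimation and 0 with those 6 libraries by themselves. It ran from 0 to 124 over the fits without 1 library, the highest without CSF1Ri replicate 3. For the difference of the contrasts, 0 became 178 with DESeq2 and ranged from 0 to 15 without 1 library, again highest without CSF1Ri replicate 3.

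With the replicate number as a block, 0 genes differed between the combination and the CD40 agonist, 3 between CSF1Ri and Control and 0 in the difference of the contrasts. Samples with the same number did not deviate together (correlations of -0.061, 0.028 and 0.028 over genes), so the numbers share no known pairing.

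For the named genes, 2013 of 2081 alternative values kept their direction and side of the threshold, and 64, in 50 genes, were called where edgeR did not call them. The estimates of Col5a1, Krt1, Mlana, Myl1 and Pdgfra changed sign or fell to 0 once each. Of 874 alternative list medians 47, in 14 lists, had another sign. Depth limits genes near 0 counts, such as Il34.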

Other observations

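Of 26 cell cycle genes, 24 had a higher estimate in the combination, with a median log2 fold change of 0.55. Of the 26 genes 1 had an unadjusted p below 0.05 with a higher value, against 4.68% of all genes. Ccnb2, a mitotic cyclin, read 11.6, 6.60 and 19.5 CPM with the antibody and 46.2, 19.5 and 34.8 CPM with both agents (1.42 ± 0.61, edgeR adjusted p 0.521). The list's median was 0.13 without combination replicate 1 and 0.91 without combination replicate 2. Without the antibody the same list had a median of -0.53.

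Single genes of other lists stood apart. Cfb, the complement factor B, read 36.2, 61.0 and 105 CPM against 147, 2126 and 298 CPM (3.67 ± 0.85, edgeR adjusted p 0.239, DESeq2 adjusted p 0.00272), and 1.72 higher without combination replicate 2, while 7 of the 14 complement genes had a lower estimate. Tlr7, an endosomal sensor of single-stranded RNA, read 161, 171 and 119 CPM against 41.5, 112 and 48.2 CPM (-1.16 ± 0.32, edgeR adjusted p 0.321), and edgeR called it without combination replicate 2 (-1.75, adjusted p 0.00863). Msr1, a macrophage scavenger receptor, read 194, 211 and 183 CPM against 273, 504 and 291 CPM (0.86 ± 0.26). It was the 1 higher gene of the macrophage identity list with an unadjusted p below 0.05, against 4.68% of all genes. In that list 2 genes were lower at that p, against 4.37%. Ppbp, a platelet chemokine, read 8.71, 7.27 and 8.05 CPM against 0.572, 3.49 and 1.07 CPM (-2.23 ± 0.88, and -3.28 without combination replicate 2). Vwf, a marker of endothelium and platelets, read 14.8, 13.6 and 9.36 CPM against 4.27, 1.56 and 1.92 CPM (-2.28 ± 0.60, DESeq2 adjusted p 0.011). The 13 CXC chemokines had a median of -1.20 without the antibody. With it the median was 0.16, and its sign turned with limma voom (-0.17), with the 6 libraries and a replicate block (-0.14), and without CD40 agonist replicate 1 (-0.03), CD40 agonist replicate 3 (-0.09) or combination replicate 1 (-0.15).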
